A study of Mus musculus with 20 samples.

Results

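De novo lipogenesis was followed through 10 genes measured by bulk RNA sequencing in 20 mouse liver libraries. The genes were taken by name, but with earlier results of these data known. They are the lipogenic enzymes Acly, Acss2, Acaca, Acacb, Fasn and Me1, the acyltransferases Gpam and Dgat2, and the lipogenic regulator Thrsp. The last is Mlxipl, which encodes the carbohydrate response element binding protein ChREBP. All 10 were found among the 55359 gene identifiers counted, and all 10 were among the 14428 genes that passed a filter on low counts, with at least 420 reads in every library.

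The 5 groups of 4 libraries came from male wild-type mice of the strain spelled C56BL/6, all killed at 35 weeks of age and all painted on postnatal day 4 or 5 on the back with 50 µL of a 0.5% acetone solution of the carcinogen DMBA. The first group was tumour tissue from exercised mice on a high-fat diet (HFD). The second was tumour tissue from non-exercised HFD mice, the third non-tumour liver from exercised HFD mice and the fourth non-tumour liver from non-exercised HFD mice. The fifth group was liver from non-exercised mice on a normal diet (ND), with no tumour library. The HFD, D12492, gave 60% of its calories as fat and 20% as carbohydrate, and the ND, CE-2, gave 12% as fat and 59% as carbohydrate. Each diet was given to mothers and pups after the DMBA and kept on after weaning at 4 weeks, and the mice called obese weighed over 45 g at the end. Treadmill running began at 20 weeks of age with 5 weeks of training, in which the speed was raised up to 18 m/min from 10 m/min, and went on at 18 m/min for 20 min on 5 days a week over the last 10 weeks. Exercised mice were killed within 2 h of a last run, on the same day as non-exercised mice, so that the effects of long training and of the last run cannot be told apart. The labels give no day of sampling for the ND mice. Tumour and non-tumour libraries of an arm carry the same mouse numbers, read here as pieces of the same mice. All mice had received DMBA, so no group shows liver without the carcinogen.

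In de novo lipogenesis the liver makes fatty acids from sugar-derived carbon in the cytosol. ACLY splits citrate into acetyl-CoA, ACSS2 makes acetyl-CoA from acetate, ACACA carboxylates it to malonyl-CoA, and FASN joins these units into palmitate with NADPH, part of which comes from the malic enzyme ME1. ACACB makes malonyl-CoA at the mitochondrion, where it inhibits fatty acid import for oxidation. GPAM begins glycerolipid synthesis at the mitochondrial outer membrane and DGAT2 completes triglyceride. Sugar metabolites activate ChREBP, which binds DNA with its partner MLX, and insulin acts on many of the same genes through SREBP-1c, encoded by Srebf1. THRSP, also called Spot 14, is a small protein induced by thyroid hormone and carbohydrate in liver and linked to lipogenic enzyme activity.

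The genes lie on chromosomes 2, 5, 7, 9, 11 and 19 of GRCm39, the build of the count tables. Acaca (chr11:84020498-84292477), Acly (chr11:100367179-100418826) and Fasn (chr11:120696672-120715373) are all on chromosome 11, Acacb (chr5:114284596-114388822) and Mlxipl (chr5:135118744-135167236) on chromosome 5, and Thrsp (chr7:97062145-97066937) and Dgat2 (chr7:98802865-98831926) on chromosome 7. Acss2 (chr2:155359868-155427644), Me1 (chr9:86463424-86578006) and Gpam (chr19:55055700-55115670) are alone on theirs. Counting was by strand over all exons of a gene. Acss2 shares part of its span with Gss on the other strand, which had 36710 reads in all.

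Start-site windows from RefSeq on GRCm38.p6, an older build whose coordinates differ from those above, were searched for motifs known from lipogenic promoters. A window held 300 bases, 250 before the annotated start and 50 after it, and 9 of the genes had 12 windows; none was used for Dgat2. Both strands were read for CCAAT, bound by NF-Y, for CACGTG, the core E-box, for TCACNCCAC, a form of the sterol regulatory element, and for the full carbohydrate response element consensus. CCAAT was in a window of 8 of the 9 genes, in 8 of 12 windows, against 37.4% of all 32851 windows. CACGTG was in 1 of the 12 windows (7.15% of all), TCACNCCAC in 1 (1.24% of all) and the full consensus in none (0.119% of all). A match of letters is not evidence of binding, and sites outside these windows were not searched. The windows of Fasn and Mlxipl and the upstream window of Gpam are printed because these genes carried the diet result below. That of Acly is printed because it carried the tumour result. The downstream window of Gpam (chr19:55099428-55099727) held no match and is not printed. They are on the gene's strand, 5′ to 3′, with every match in capitals and a CCAAT of the other strand shown reversed as ATTGG:
Fasn, chr11:120824498-120824797, minus strand: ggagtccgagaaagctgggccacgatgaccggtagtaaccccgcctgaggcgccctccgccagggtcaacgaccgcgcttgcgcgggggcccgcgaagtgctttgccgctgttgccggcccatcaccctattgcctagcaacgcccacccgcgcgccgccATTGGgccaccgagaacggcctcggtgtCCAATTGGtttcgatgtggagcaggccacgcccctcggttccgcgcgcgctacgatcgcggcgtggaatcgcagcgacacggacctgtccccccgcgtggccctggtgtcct
Gpam, chr19:55127189-55127488, minus strand: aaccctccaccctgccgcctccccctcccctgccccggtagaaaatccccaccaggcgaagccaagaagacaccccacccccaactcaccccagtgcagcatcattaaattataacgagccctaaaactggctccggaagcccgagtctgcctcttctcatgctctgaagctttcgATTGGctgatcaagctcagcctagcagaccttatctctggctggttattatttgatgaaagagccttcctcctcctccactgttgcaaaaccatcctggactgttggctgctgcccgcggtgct
Mlxipl, chr5:135106641-135106940, plus strand: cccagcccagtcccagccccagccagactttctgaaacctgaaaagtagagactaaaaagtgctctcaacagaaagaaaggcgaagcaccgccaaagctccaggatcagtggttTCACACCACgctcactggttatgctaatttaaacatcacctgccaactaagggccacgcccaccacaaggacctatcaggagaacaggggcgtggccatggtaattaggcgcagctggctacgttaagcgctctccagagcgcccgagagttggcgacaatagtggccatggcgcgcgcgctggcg
Mlxipl, chr5:135089640-135089939, plus strand: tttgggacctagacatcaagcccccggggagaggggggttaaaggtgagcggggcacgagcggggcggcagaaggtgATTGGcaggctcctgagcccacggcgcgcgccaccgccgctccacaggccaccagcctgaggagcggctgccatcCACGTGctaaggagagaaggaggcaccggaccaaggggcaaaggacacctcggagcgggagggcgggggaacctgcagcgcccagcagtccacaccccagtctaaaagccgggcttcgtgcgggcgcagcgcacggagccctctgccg
Acly, chr11:100527951-100528250, minus strand: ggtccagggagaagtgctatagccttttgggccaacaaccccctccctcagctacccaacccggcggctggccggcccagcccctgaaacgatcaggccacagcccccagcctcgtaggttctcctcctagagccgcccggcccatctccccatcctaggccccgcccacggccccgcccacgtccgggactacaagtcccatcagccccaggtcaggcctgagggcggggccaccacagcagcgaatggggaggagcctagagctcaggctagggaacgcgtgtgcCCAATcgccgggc

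In the Fasn window CCAAT and its reverse overlapped 62 and 59 bases before the start, and a further reverse copy began 90 bases before it. The upstream Gpam window held a reverse copy 74 bases before its start, and the downstream one held no match. Mlxipl is annotated with 2 starts 17001 bases apart: the window of the downstream start held TCACACCAC 136 bases before it, and the window of the upstream start held the E-box 98 bases before it and a reverse CCAAT 173 bases before it. The counts are per gene, so transcripts from the 2 starts cannot be told apart. In Acly the only CCAAT lay after the start, at base 38.

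The libraries held 16471378 to 20271948 reads assigned to genes. Alb took 9.05% to 15.9% of the reads in tumours and 4.06% to 7.36% in non-tumour liver of both diets, and every library carried the hepatocyte markers. The adipocyte transcripts Adipoq, Plin1 and Lep had at most 2 reads in any library. Other markers of the adipocyte list were present. Their group means were 1010 to 5380 CPM for Car3, 9.99 to 14.7 CPM for Lipe and 0.868 to 12.1 CPM for Cfd. Srebf1 and Pklr are named below after their values were seen. Levels are given as CPM, read counts scaled to library size with TMM factors, and fold changes are log2 with a standard error (SE) from edgeR's quasi-likelihood fit over all libraries. A gene passed the test at a Benjamini-Hochberg adjusted p under 0.05 over all 14428 genes. The p-values rest on the spread between libraries within groups, where each library is read as 1 mouse. The fit treats all libraries as independent, so tumour and non-tumour pieces of the same mouse are not paired in it.

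**Figure D1:**
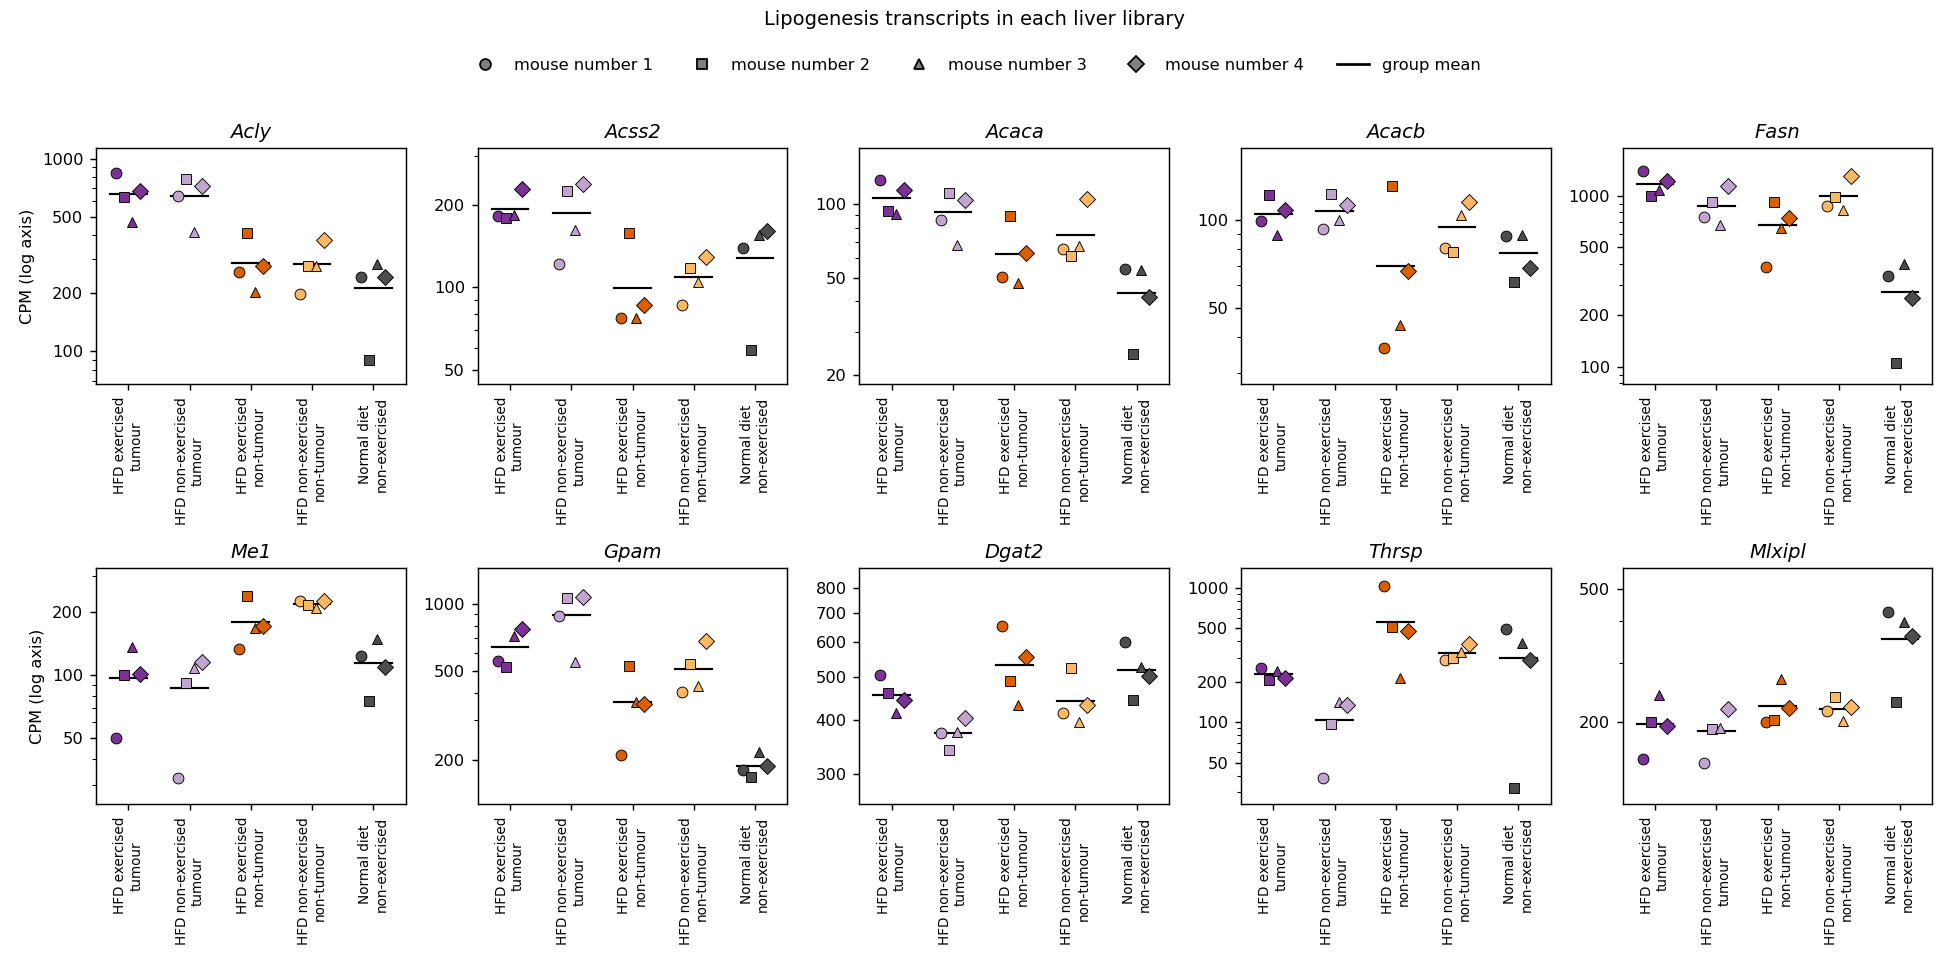
Level of each of the 10 genes in CPM (log axis) in the 20 libraries, by group; symbols give the mouse number and bars the group mean. Fasn and Gpam have their lowest group means in ND livers and Mlxipl its highest. Acly is higher in all 8 tumour libraries than in all 12 others, but narrowly (lowest tumour library 414.7 CPM, highest other library 412.3 CPM). The share of all genes with this ordering was not counted.

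Per kilobase of exon, which allows genes to be set side by side, the level in ND livers was highest for Dgat2 at 168 ± 21.1 CPM per kb and Thrsp at 138 ± 89.8 CPM per kb (SD, n = 4). Mlxipl stood at 63.9, Acly at 40.5, Me1 at 29.7, Gpam at 28.3 and Fasn at 25 CPM per kb. Acss2 at 12.6, Acacb at 8 and Acaca at 2.54 CPM per kb were the lowest. In exercised tumours Dgat2 was still highest at 148 CPM per kb, but Acly at 124 and Fasn at 107 CPM per kb came next, ahead of Thrsp at 104. The lengths are unions of all annotated exons, 17074 bases for Acaca, so long rare exons lower these values.

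The effect of the high-fat diet was read in non-tumour liver of mice that did not run, with ND liver as the baseline. Fatty acid synthase and the acyltransferase that begins glycerolipid synthesis were the genes most raised: Fasn was 3.64-fold and Gpam 2.72-fold higher in HFD liver. Acaca and Me1 were 1.72-fold and 1.93-fold higher, while Mlxipl, the ChREBP gene, was lower at 0.62 of its ND level. In all, 5 of the 10 genes passed the test, 4 higher and 1 lower, against 25.9% of all genes tested in either direction, 14% higher and 11.9% lower. The median log2 fold change was 0.35 over the 10 genes and 0.01 over all genes.

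Fasn had 874, 984, 830 and 1300 CPM in HFD livers, against 338, 105, 401 and 252 CPM in ND livers. Every HFD library was above every ND library, by a log2 fold change of 1.86 ± 0.32 (SE, adjusted p = 0.000818). Gpam had 402, 537, 427 and 682 CPM in HFD livers, against 180, 168, 217 and 188 CPM in ND livers. Its groups were also apart, with the 4 ND libraries close together, and the log2 fold change was 1.44 ± 0.25 (SE, adjusted p = 0.000788).

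Among the other enzymes, Acaca, the cytosolic carboxylase, averaged 74.7 ± 20.1 CPM in HFD livers and 43.4 ± 13.9 CPM in ND livers (SD, n = 4 each). Its log2 fold change was 0.78 ± 0.25 (SE, adjusted p = 0.0284). Me1 had 227, 218, 209 and 227 CPM in HFD livers, against 123, 75.2, 149 and 110 CPM in ND livers, a log2 fold change of 0.95 ± 0.33 (SE, adjusted p = 0.0426). The HFD libraries of Me1 were nearly alike, and neither gene's groups overlapped. All 4 libraries of HFD above all 4 of ND was seen for these 4 genes, and for 16.8% of all genes.

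Mlxipl had 216, 239, 202 and 222 CPM in HFD livers, against 427, 230, 398 and 362 CPM in ND livers. The HFD libraries were tight and 3 of 4 ND libraries were well above them, but ND library 2 lay within their range. The log2 fold change was -0.69 ± 0.17 (SE, adjusted p = 0.00706), so the ChREBP transcript and the Fasn transcript passed in opposite directions. The groups differ in diet, in body weight and possibly in the day of sampling, which cannot be told apart here, and in bulk liver fewer cells of a type and less RNA per cell cannot be told apart either.

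The remaining 5 genes did not pass. Acly had a log2 fold change of 0.40 ± 0.31 (SE), Acacb 0.30 ± 0.28, Acss2 -0.23 ± 0.28 and Dgat2 -0.23 ± 0.13, with adjusted p between 0.188 and 0.575. Thrsp was uninformative at 0.11 ± 0.56 (SE, adjusted p = 0.9): it had 290, 299, 331 and 382 CPM in HFD livers, against 491, 32.6, 388 and 293 CPM in ND livers. Its ND libraries spread 15.1-fold and enclosed the whole HFD range.

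The calls of Fasn, Gpam and Mlxipl were kept when any of the 8 libraries was left out. That of Acaca was lost without ND library 2 (0.57, adjusted p = 0.0818), ND library 4 (0.75, 0.0679) or HFD library 4 (0.58, 0.113). That of Me1 was lost without ND library 1, 2 or 4 or any HFD library (adjusted p 0.0671 to 0.123), so that 3 of the 10 genes passed without ND library 2, ND library 4 or HFD library 4.

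**Figure D2:**
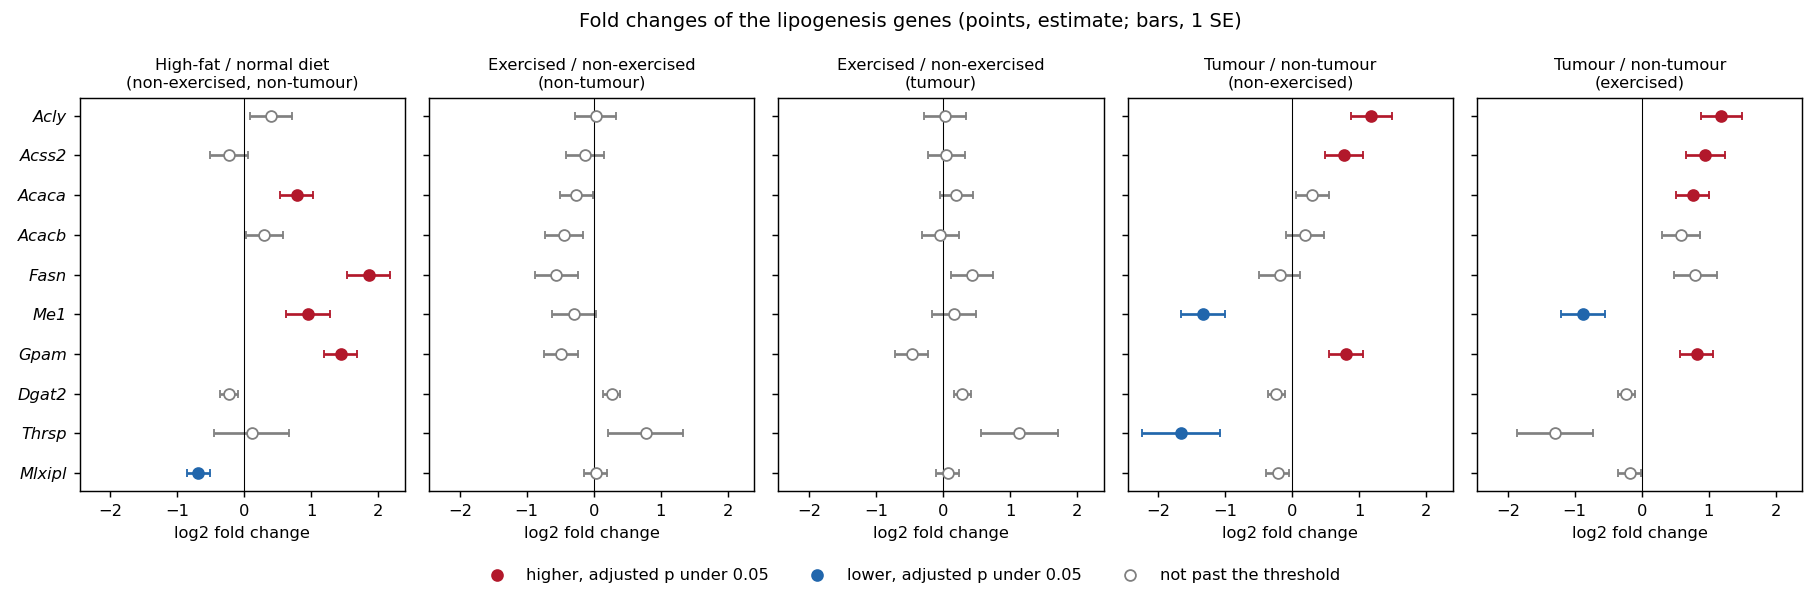
Log2 fold change of each gene (points, with bars of 1 SE) in 5 comparisons; filled symbols passed at an adjusted p under 0.05, red higher and blue lower. Fasn and Gpam lead the diet comparison, no gene is filled in either exercise comparison, and Acly, Acss2 and Gpam are higher and Me1 lower in both tumour comparisons.

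Neighbouring pathways are given by counts, to be read against the 14% of all genes that passed upward and the 11.9% that passed downward with diet. Of 9 desaturases and elongases 6 were higher and 0 lower, with a median log2 fold change of 0.90. With only the groups compared, or with the mouse number as a replicate block, 6 were higher and 1 lower. The elongase Elovl3 averaged 227 CPM in HFD and 1080 CPM in ND livers and did not pass in the fit over all libraries. The elongase Elovl5 (1.55 ± 0.23) and the desaturase Fads2 (1.34 ± 0.20) passed with the smallest p, followed by Fads1 (0.94 ± 0.18) and Elovl6 (0.90 ± 0.25), which lengthens the palmitate that FASN makes. Of 14 genes of NADPH and acetyl-CoA supply 5 were higher and 1 lower: the pentose phosphate enzymes Pgd (0.96 ± 0.22) and Tkt (0.52 ± 0.13) and the mitochondrial pyruvate carrier subunit Mpc1 (0.47 ± 0.11) were higher, and H6pd (-0.57 ± 0.16) was lower.

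Of 13 sugar-handling genes, most of them known as ChREBP targets, 7 were higher and 0 lower, with a median of 0.61. The lipase-family gene Pnpla3 (4.07 ± 0.49), the hormone gene Fgf21 (3.93 ± 0.68), Arrdc4 (0.76 ± 0.17) and the triokinase Tkfc (0.69 ± 0.15) led them. Pnpla3 was rare in ND livers, with 31, 51, 62 and 58 reads in HFD livers, against 2, 1, 5 and 2 reads in ND livers, so its fold rests on few reads. Fgf21 was also low in ND livers, averaging 0.642 CPM there and 9.96 CPM in HFD livers. G6pc averaged 485 CPM in HFD and 937 CPM in ND livers and did not pass. With DESeq2 or with only the groups compared, 1 of the 13 genes was lower. The 7 genes that were higher passed in livers whose ChREBP transcript was lower.

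Of 15 partners and controllers of ChREBP and SREBP only 3 passed. Mid1ip1, a relative of Thrsp whose product binds the carboxylases, was higher (1.26 ± 0.26). Scap, the escort of SREBP to the Golgi, was lower (-0.73 ± 0.15), as was the nuclear receptor gene Rxra (-0.44 ± 0.11). Srebf1 had 419, 452, 305 and 382 CPM in HFD livers, against 303, 63.2, 357 and 321 CPM in ND livers, and did not pass at 0.58 (adjusted p = 0.22).

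Of 11 genes of triglyceride assembly 1 was higher, Mogat1 (2.95 ± 0.63), and 1 lower, Gpat4 (-0.68 ± 0.16), an acyltransferase of the same first step as Gpam but in the endoplasmic reticulum; with upper-quartile scaling 3 were higher. Of 10 genes of AMPK and malonyl-CoA control only the AMPK subunit Prkab2 (0.79 ± 0.24) passed, upward. With a library left out the counts of genes higher fell to 4 for the ChREBP targets (without ND library 2 or 4 or HFD library 4), to 4 for the desaturases and elongases (without ND library 1 or 4 or HFD library 2 or 4) and to 3 for the NADPH list (without ND library 2, 3 or 4 or HFD library 1).

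Markers of other cells were counted in the same comparison, with the same shares of all genes as background. Of 8 macrophage markers 6 were higher, with summed levels of 350 to 455 CPM in HFD livers and 182 to 259 CPM in ND livers. Stellate cell markers were higher for 2 of 5 (289 to 472 CPM in HFD, 220 to 291 CPM in ND) and erythroid markers for 3 of 4 (145 to 393 CPM in HFD, 164 to 237 CPM in ND). Endothelial markers were lower for 2 of 5 (121 to 205 CPM in HFD, 207 to 235 CPM in ND), hepatocyte markers for 2 of 7 (62300 to 88000 CPM in HFD, 81900 to 96500 CPM in ND) and mitochondrial transcripts for 1 of 5 tested (31800 to 44300 CPM in HFD, 42700 to 52400 CPM in ND). T cell and cholangiocyte markers had none past the test among 5 each, nor did the 3 of 7 adipocyte markers that were tested. Their part in the diet result was not tested.

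Exercised HFD liver was also set against ND liver, a comparison that shares its ND libraries with the one above. Fasn was higher (1.30 ± 0.32, adjusted p = 0.0125), Gpam was higher (0.95 ± 0.25, adjusted p = 0.0174) and Mlxipl was lower (-0.66 ± 0.17, adjusted p = 0.0152), 3 of 10 genes against 14.2% of all genes, 7.54% higher and 6.69% lower. Fasn averaged 674 ± 224 CPM in exercised HFD livers and 274 ± 128 CPM in ND livers (SD, n = 4 each), and the 2 groups overlapped by the library of exercised mouse 1, at 382 CPM. Acaca at 0.52 ± 0.25 (SE, adjusted p = 0.168) and Me1 at 0.65 ± 0.33 (SE, adjusted p = 0.195) did not pass. Without exercised library 2 the Gpam and Mlxipl calls were lost (0.72, adjusted p = 0.0749, and -0.62, adjusted p = 0.0518), and without ND library 1 that of Mlxipl (-0.56, adjusted p = 0.0555). With only these 2 groups fitted Fasn was at 1.31 (adjusted p = 0.0719).

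Exercise was compared with no exercise within HFD non-tumour liver, and none of the 10 genes passed edgeR's test. Across all genes 2 of 14428 passed (0.0139%). At an unadjusted p under 0.05 there was 1 of the 10 genes and 1203 of all genes, and DESeq2 called 0 of the 10 genes and 107 of all genes. The signs were mixed, with a median log2 fold change of -0.19 over the 10 genes.

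Gpam averaged 363 ± 129 CPM in exercised livers and 512 ± 128 CPM in non-exercised livers (SD, n = 4 each), a log2 fold change of -0.49 ± 0.25 (SE, adjusted p = 0.623). Fasn had 382, 919, 648 and 745 CPM in exercised livers, against 874, 984, 830 and 1300 CPM in non-exercised livers. Only exercised library 2 reached the range of the non-exercised libraries, and the log2 fold change was -0.56 ± 0.32 (SE, adjusted p = 0.67).

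Dgat2 had 655, 489, 433 and 557 CPM in exercised livers, against 413, 524, 396 and 433 CPM in non-exercised livers. The groups overlapped, and its log2 fold change of 0.27 ± 0.13 (SE) had an unadjusted p of 0.0477 and an adjusted p of 0.595. Thrsp had 1040, 516, 213 and 475 CPM in exercised livers, against 290, 299, 331 and 382 CPM in non-exercised livers. It spread 4.87-fold among exercised mice, with the highest library at mouse 1 and the lowest at mouse 3, and gave 0.78 ± 0.56 (SE, adjusted p = 0.773). Mlxipl averaged 224 ± 32 CPM in exercised livers and 220 ± 15.3 CPM in non-exercised livers (SD, n = 4 each). The remaining 5 genes had log2 fold changes between -0.44, for Acacb, and 0.03, for Acly, whose sign turned under another scaling.

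In tumours, exercise against no exercise again gave 0 of the 10 genes by edgeR's test, with 3 of all 14428 genes called (0.0208%). At an unadjusted p under 0.05 there was 1 of the 10 genes and 1252 of all genes, and DESeq2 called 0 of the 10 genes and 79 of all genes. Thrsp had 251, 205, 242 and 212 CPM in exercised tumours, against 38.3, 97.8, 142 and 135 CPM in non-exercised tumours. All exercised libraries were above all non-exercised ones, and the log2 fold change of 1.14 ± 0.57 (SE) had an adjusted p of 0.593. Dgat2 had 506, 460, 414 and 444 CPM in exercised tumours, against 373, 342, 375 and 403 CPM in non-exercised tumours. These groups were also apart, at 0.29 ± 0.13 (SE, unadjusted p = 0.0377, adjusted p = 0.549). Such an ordering upward was seen for these 2 genes and for 2.27% of all genes, and the reverse for 0 of the 10 and 1.48% of all genes.

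Gpam averaged 642 ± 121 CPM in exercised tumours and 891 ± 245 CPM in non-exercised tumours (SD, n = 4 each), a log2 fold change of -0.47 ± 0.25 (SE, adjusted p = 0.618). Fasn averaged 1180 ± 176 CPM in exercised tumours and 870 ± 210 CPM in non-exercised tumours (SD, n = 4 each), at 0.43 ± 0.31 (SE, adjusted p = 0.731). The remaining 6 genes lay between -0.04 and 0.20. The p-values that miss the threshold do not show that exercise left these genes alike: an SE of 0.13 for Dgat2 and of 0.57 for Thrsp shows that the precision differed widely among the 10 genes.

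In both exercise comparisons 0 genes of the 6 neighbouring pathway lists passed edgeR's test, in either direction. DESeq2 called 1 of the 15 controllers of ChREBP and SREBP higher, 1 of the 13 sugar-handling genes lower and 1 of the 11 triglyceride genes higher in non-tumour liver, and 0 in tumours. With edgeR, 1 controller and 1 triglyceride gene were called higher in non-tumour liver without exercised library 3, and 1 sugar-handling gene lower without exercised library 2. The phosphatidate phosphatase gene Lpin1 in the triglyceride list, named as 1 of its 2 most abundant genes, had a log2 fold change of 2.40 ± 0.53 (SE, adjusted p = 0.143) in non-tumour liver and 1.76 ± 0.52 (SE, adjusted p = 0.325) in tumours. Lpin2 had 0.67 ± 0.23 (adjusted p = 0.392) in non-tumour liver and 0.77 ± 0.23 (adjusted p = 0.329) in tumours. The other abundant genes reported from the lists, such as Khk and Scd1, had adjusted p of at least 0.407, apart from Rxra in non-tumour liver at 0.45 ± 0.11 (SE, adjusted p = 0.194).

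The difference between the exercise effect in tumours and that in non-tumour liver was tested directly, and none of the 10 genes passed edgeR's test, nor did any of the 14428 genes (0%). At an unadjusted p under 0.05 there was 1 of the 10 genes and 293 of all genes, and DESeq2 called 0 of the 10 genes and 0 of all genes. Fasn had the largest estimate among the 10, with its exercise fold in tumours 2 times that in non-tumour liver (SE of 0.45 on the log2 scale, unadjusted p = 0.0376, adjusted p = 1). All 10 estimates were above 0, but Acly, Gpam and Dgat2 stood at 0.01 to 0.02 and took the other sign under another scaling.

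Tumours were set against non-tumour liver within each exercise arm, with different mice in the 2 arms. The enzymes that make acetyl-CoA in the cytosol were higher in tumours of both arms: Acly was 2.28-fold higher in exercised and 2.27-fold higher in non-exercised mice, and Acss2 was 1.93-fold and 1.7-fold higher in the same order. Gpam was also higher in both, 1.77-fold in exercised and 1.74-fold in non-exercised mice. Me1, which supplies NADPH, was lower in both, at 0.543 of its non-tumour level in exercised and 0.395 in non-exercised mice. Neither Mlxipl nor Dgat2 passed in either arm, and none of the 10 genes passed the test of the difference between the arms, which is the one given above.

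In exercised mice 5 of the 10 genes passed, 4 higher and 1 lower, against 34.6% of all genes in either direction, 18.6% higher and 16% lower. The median was 0.68 over the 10 genes and 0.01 over all genes. Acly had 838, 631, 466 and 682 CPM in tumours, against 258, 412, 203 and 276 CPM in non-tumour liver. The groups did not overlap (1.19 ± 0.31, adjusted p = 0.00742). Acss2 had 181, 178, 183 and 228 CPM in tumours, against 77.3, 158, 77.7 and 86.6 CPM in non-tumour liver, and Acaca had 125, 93.9, 90.7 and 114 CPM in tumours, against 50.1, 88.8, 47.6 and 63 CPM in non-tumour liver. For both, non-tumour library 2 came close to the tumours without reaching them (Acss2 0.95 ± 0.29, adjusted p = 0.0169, and Acaca 0.76 ± 0.25, adjusted p = 0.0247). With Acly and Fasn, 4 of the 10 genes had all tumour libraries above all non-tumour ones, against 14.6% of all genes.

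Gpam averaged 642 ± 121 CPM in exercised tumours and 363 ± 129 CPM in non-tumour liver (SD, n = 4 each), with a log2 fold change of 0.82 ± 0.25 (SE, adjusted p = 0.0163). Me1 had 50, 99.9, 137 and 102 CPM in tumours, against 134, 241, 169 and 173 CPM in non-tumour liver. Tumour library 3 lay just above the lowest non-tumour library, and the log2 fold change was -0.88 ± 0.33 (SE, adjusted p = 0.0464). Thrsp had 251, 205, 242 and 212 CPM in tumours, against 1040, 516, 213 and 475 CPM in non-tumour liver, and did not pass (-1.30 ± 0.57, adjusted p = 0.0868).

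Fasn had 1400, 998, 1090 and 1220 CPM in exercised tumours, against 382, 919, 648 and 745 CPM in non-tumour liver. The groups were apart but the test fell short at 0.80 ± 0.32 (SE, adjusted p = 0.0563). With the mouse as a replicate block, the pairing that the shared numbers imply, Fasn (0.86, adjusted p = 0.0235) and Acacb (0.76, adjusted p = 0.0314) passed, so that 7 of the 10 genes did, 6 higher and 1 lower. Without the block Acacb had 0.59 ± 0.28 (SE, adjusted p = 0.117), with 99.2, 122, 89.3 and 109 CPM in tumours, against 36.6, 131, 43.9 and 67.4 CPM in non-tumour liver. Its highest value of all was in non-tumour library 2.

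In exercised mice the call of Acly was kept when any of the 8 libraries was left out, and that of Gpam was lost only without non-tumour library 1 (0.63, adjusted p = 0.0562). Those of Acss2 (without non-tumour library 1, 3 or 4, adjusted p 0.0509 to 0.0581), Acaca (without those or tumour library 1 or 4, adjusted p 0.0519 to 0.0807) and Me1 (without non-tumour library 2, 3 or 4 or tumour library 1, 2 or 4, adjusted p 0.0644 to 0.139) were lost. The count was 2 without non-tumour library 1 or 4 and 3 without non-tumour library 3 or tumour library 1 or 4. Without non-tumour library 2 Fasn (0.98, adjusted p = 0.0347) and Acacb (1.07, adjusted p = 0.000968) passed, and without non-tumour library 3 Thrsp did (-1.59, adjusted p = 0.0462).

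In non-exercised mice 5 of the 10 genes passed, 3 higher and 2 lower, against 35.8% of all genes in either direction, 18% higher and 17.8% lower. The median log2 fold change was -0.00 over the 10 genes and -0.01 over all genes. Acly had 639, 786, 415 and 719 CPM in tumours, against 198, 275, 276 and 378 CPM in non-tumour liver. Every tumour library was above every non-tumour library, at 1.18 ± 0.31 (SE, adjusted p = 0.00691). Acss2 had 122, 223, 162 and 237 CPM in tumours, against 86.4, 117, 105 and 129 CPM in non-tumour liver, with only tumour library 1 inside the non-tumour range (0.77 ± 0.29, adjusted p = 0.0438). Gpam had 881, 1070, 548 and 1070 CPM in tumours, against 402, 537, 427 and 682 CPM in non-tumour liver, with tumour library 3 below the highest non-tumour library (0.80 ± 0.25, adjusted p = 0.0177).

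On the other side, Me1 had 32.2, 91.5, 109 and 115 CPM in non-exercised tumours, against 227, 218, 209 and 227 CPM in non-tumour liver. The groups were far apart, and tumour library 1 was the lowest (-1.34 ± 0.33, adjusted p = 0.00499). Thrsp had 38.3, 97.8, 142 and 135 CPM in tumours, against 290, 299, 331 and 382 CPM in non-tumour liver. It too was lower in every tumour library, and lowest in library 1 (-1.66 ± 0.58, adjusted p = 0.033). All tumour libraries lay below all non-tumour ones for 2 of the 10 genes and for 18.2% of all genes. The reverse was seen for 1 of the 10 genes, Acly, and for 16.5% of all genes. Fasn averaged 870 ± 210 CPM in tumours and 996 ± 211 CPM in non-tumour liver (SD, n = 4 each), a log2 fold change of -0.19 ± 0.31 (SE, adjusted p = 0.663). Acaca at 0.30 ± 0.25, Acacb at 0.19 ± 0.28, Mlxipl at -0.22 ± 0.17 and Dgat2 at -0.24 ± 0.13 (SE) did not pass either, with adjusted p between 0.152 and 0.642.

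The calls of Acly and Me1 were kept when any of the 8 libraries was left out. Those of Thrsp (without any non-tumour library or tumour library 1 or 2, adjusted p 0.0517 to 0.106), Acss2 (without non-tumour library 1, 2 or 3 or tumour library 2 or 4, adjusted p 0.0707 to 0.12) and Gpam (without non-tumour library 1 or 3 or tumour library 2, adjusted p 0.0527 to 0.0611) were lost, leaving 2 genes without non-tumour library 1 or 3 or tumour library 2 and 3 genes without non-tumour library 2.

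The neighbouring lists are given for tumours against non-tumour liver in exercised and then in non-exercised mice, where 18.6% and 18% of all genes were higher and 16% and 17.8% lower. Of 14 genes of NADPH and acetyl-CoA supply 3 and 2 were higher and 6 and 8 lower. G6pdx, the first enzyme of the pentose phosphate pathway, was higher (2.00 ± 0.30 and 1.77 ± 0.29). The malate dehydrogenase Mdh1 (-0.87 ± 0.15 and -1.05 ± 0.15) and the mitochondrial dicarboxylate carrier Slc25a10 (-1.03 ± 0.22 and -1.51 ± 0.23) were lower, as was Me1. Pdha1 (-0.37 ± 0.09) in exercised mice and Taldo1 (-0.55 ± 0.10) in non-exercised mice were also lower.

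Of 9 desaturases and elongases 5 were higher and 0 lower in each arm. With DESeq2 1 was lower in non-exercised mice. The stearoyl-CoA desaturase Scd2 had the largest log2 fold changes among them (4.87 ± 0.52 and 4.91 ± 0.52), and Fads2 (0.93 ± 0.20 and 1.10 ± 0.20), Fads1 (0.87 ± 0.18 and 1.02 ± 0.18) and Elovl2 (0.73 ± 0.15 and 0.74 ± 0.15) followed.

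Of the 15 controllers of ChREBP and SREBP 3 and 3 were higher, near the share of all genes, and 4 and 5 lower. Srebf2, which drives cholesterol synthesis genes (0.90 ± 0.14 and 0.78 ± 0.14), and Scap (0.86 ± 0.15 and 0.71 ± 0.15) were higher. Rxra (-0.61 ± 0.11 and -0.50 ± 0.11) was lower in both, Nr1h3, which encodes the oxysterol receptor LXR alpha (-0.46 ± 0.09), in exercised mice and Usf2 (-0.44 ± 0.08) in non-exercised mice. Srebf1 did not pass in exercised mice, with 151, 237, 255 and 249 CPM in tumours, against 404, 276, 380 and 471 CPM in non-tumour liver (-0.78, adjusted p = 0.0857). In non-exercised mice it had 195, 240, 237 and 222 CPM in tumours, against 419, 452, 305 and 382 CPM in non-tumour liver (-0.80, adjusted p = 0.0755). Its tumour libraries were all below its non-tumour libraries in both arms. The same was seen for 13.9% of all genes in exercised and 18.2% in non-exercised mice.

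Of 13 ChREBP targets of sugar handling 4 and 2 were higher and 1 and 4 lower. Pnpla3 (4.12 ± 0.35 and 2.88 ± 0.31) was higher and the fructokinase Khk lower (-0.48 ± 0.15 and -0.74 ± 0.15). Tm6sf2 was higher too, by 0.90 ± 0.20 in exercised mice and with an adjusted p of 0.00104 in non-exercised mice, where it averaged 41.2 CPM in tumours and 20.6 CPM in non-tumour liver. Arrdc4 was higher in exercised mice (0.63 ± 0.17).

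Of 11 genes of triglyceride assembly 1 and 1 were higher and 2 and 4 lower. Lpin3 was higher (1.33 ± 0.31 and 1.49 ± 0.31), while Gpat4 (-1.14 ± 0.16 and -0.97 ± 0.16) and Agpat2 (-0.66 ± 0.14 and -0.72 ± 0.14) were lower, and Mogat1 was lower in non-exercised mice (-1.97 ± 0.59). Gpam and Gpat4, which catalyse the same acylation in different membranes, thus passed in opposite directions in both arms.

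Of 10 genes of AMPK and malonyl-CoA control 3 were higher and 3 lower in each arm. The AMPK subunits Prkab1 (1.01 ± 0.16 and 0.86 ± 0.16) and Prkaa1 (0.50 ± 0.10 and 0.44 ± 0.10) were higher, and Mlycd, whose product degrades malonyl-CoA, was lower (-0.58 ± 0.14 and -0.76 ± 0.14). Trib3 was higher in exercised mice (2.69 ± 0.52), and Prkaa2 was lower in non-exercised mice (-0.65 ± 0.17). In non-exercised mice the number of NADPH genes lower was 5 with RLE scaling, against 8 with TMM, and 5 without non-tumour library 1 or 2 or any of tumour libraries 1, 3 and 4. With a tumour library left out, the genes lower there were 3 of the 15 controllers (without library 1 or 2), 2 of the 13 sugar-handling genes (without library 1, or without non-tumour library 4) and 2 of the 11 triglyceride genes (without library 2).

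**Figure D3:**
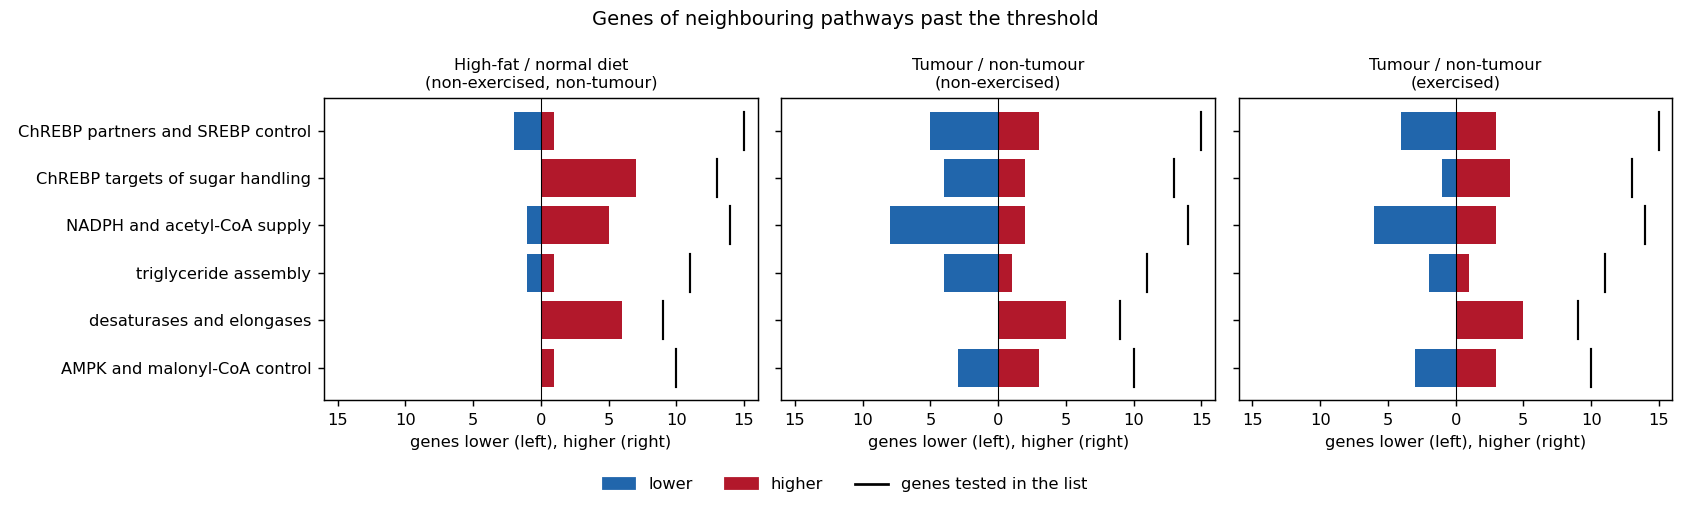
Number of genes past the test in 6 neighbouring lists, lower to the left and higher to the right, in the diet comparison and the tumour comparison of each arm; black ticks give the number of genes tested. In edgeR's fit over all libraries, desaturases and elongases passed upward only, 6 with diet and 5 in each tumour comparison.

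Cell markers and RNA quality were also compared between tumour and non-tumour liver, with the same shares of all genes as background. In exercised mice hepatocyte markers were higher for 3 and lower for 2 of 7, with summed levels of 131000 to 229000 CPM in tumours and 80700 to 94100 CPM in non-tumour liver. In non-exercised mice 3 were higher and 3 lower, with 103000 to 214000 CPM in tumours and 62300 to 88000 CPM in non-tumour liver. Most of these sums was Alb. It averaged 143000 CPM in exercised and 128000 CPM in non-exercised tumours, against 60000 and 48300 CPM in non-tumour liver. Cyp2e1 of the same list averaged 1450 and 1100 CPM in tumours, against 5990 and 4800 CPM in non-tumour liver. Mitochondrial transcripts were lower for 3 of 5 tested in exercised mice, with 26100 to 35800 CPM in tumours and 39300 to 47600 CPM in non-tumour liver. They were lower for 4 of 5 in non-exercised mice, with 19600 to 30300 CPM in tumours and 31800 to 44300 CPM in non-tumour liver.

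Macrophage markers were lower for 2 of 8 in each arm, with summed levels of 144 to 310 CPM in tumours and 383 to 443 CPM in non-tumour liver of exercised mice, and 120 to 539 CPM in tumours and 350 to 455 CPM in non-tumour liver of non-exercised mice. Cholangiocyte markers were higher for 2 of 5 in each arm and lower for 1 in non-exercised mice. Their summed levels were 103 to 1450 CPM in tumours and 41.9 to 120 CPM in non-tumour liver of exercised mice, and 371 to 1470 CPM in tumours and 45.3 to 179 CPM in non-tumour liver of non-exercised mice. Nearly all of the mean sum was Spp1, at 600 CPM in exercised and 862 CPM in non-exercised tumours, against 59 and 98.5 CPM in non-tumour liver. Sox9 was the other gene higher. Krt19, Krt7 and Epcam each averaged at most 1.96 CPM in tumours and at most 2 CPM in non-tumour liver, and Krt19 was the gene lower. Endothelial markers were higher for 2 of 5 in exercised and 1 of 5 in non-exercised mice. Erythroid markers were lower for 1 of 4 in each arm, stellate markers for 1 of 5 and adipocyte markers (Cfd and Car3) for 2 of 3 tested in non-exercised mice, and no T cell marker passed. Counts of 1 of 4, 1 of 5 or 2 of 8 are near those shares. The part of these markers in the tumour results was not tested. In both exercise comparisons no marker of any of these lists passed.

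Over the 5 groups, no gene had an order of levels with clear steps throughout. Of 40 pairs of groups next to each other in the order of a gene's mean CPM, 38 overlapped. The 2 that did not were Acly, higher in non-exercised tumours than in exercised non-tumour liver, and Thrsp, higher in exercised than in non-exercised tumours. The Acly step was narrow. Its lowest non-exercised tumour library had 414.7 CPM and its highest exercised non-tumour library 412.3 CPM. The share of such pairs over all genes was not counted. Acly, Acaca and Fasn were lowest in ND livers and highest in exercised tumours, with Fasn going through 674 CPM in exercised non-tumour, 870 CPM in non-exercised tumour and 996 CPM in non-exercised non-tumour livers in between. Mlxipl ran the other way, with 188 CPM in non-exercised tumours as its lowest mean and 354 CPM in ND livers as its highest.

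Likeness of profiles was measured as the root mean square difference of log2 CPM, each gene centred on its own mean over the 20 libraries, as a description. Among the 10 genes the closest pairs were Mlxipl and Dgat2 at 0.35, Acly and Acaca at 0.36, and Acacb and Acss2 at 0.38, and the farthest pair was Thrsp and Gpam at 1.63. Among 11953 other genes, Acaca was closest to Pgd (0.20) and Pyroxd2 (0.24), Acly to Ank3 (0.24) and Fdft1 (0.27), and Acss2 to Mmab and Acat2 (0.31 each). Fasn was closest to Gas2l3 and Slc17a4 (0.40 each), Gpam to Samd4 (0.26) and Smim3 (0.29), Me1 to Entpd5 (0.26) and Uck1 (0.27), and Acacb to Eif2ak4 (0.27) and Gypc (0.28). Mlxipl was closest to Adra1b (0.14) and Stat5b (0.17), and Dgat2 to Slc22a18 and C1rl (0.13 each). Thrsp had no close neighbour, with Tcim at 0.67 and Erbb4 at 0.70. The measure favours genes that vary little, and the 20 points share mice and groups.

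Single mice carried much of the spread within groups. ND library 2 was the lowest of its group for all 10 genes, as it was for 33.2% of all genes, with a mean log2 deviation of -0.86 over the 10. Thrsp had 32.6 CPM there and 293 to 491 CPM in the other ND libraries, and Srebf1 had 63.2 CPM there and 303 to 357 CPM in the others. Pklr, a ChREBP target of glycolysis, had 113 CPM there and 172 to 252 CPM in the others. Without this library the diet log2 fold changes were 1.58 for Fasn (adjusted p = 0.000924), 1.38 for Gpam (0.00336) and -0.86 for Mlxipl (0.000964), and that of Thrsp was -0.28 (0.665), with its sign turned.

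Among exercised non-tumour livers, library 2 was the highest for 7 of the 10 genes, and for 30.6% of all genes. Library 1 was the lowest for 6 of the 10, and for 29.1% of all genes, although its Thrsp, at 1040 CPM, was the highest of all 20 libraries. Without library 2 the exercise log2 fold changes in non-tumour liver were -0.75 for Fasn (adjusted p = 0.388), -0.72 for Gpam (0.241) and -0.94 for Acacb (0.135), and none passed. Among non-exercised HFD livers, library 4 was the highest for 8 of the 10 genes, and for 30% of all genes. Non-exercised tumour library 1 was the lowest for 5 of the 10 genes, Me1 and Thrsp among them, and for 29.8% of all genes. Exercised tumour library 1 also had the lowest Me1 of its group, at 50 CPM.

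**Figure D4:**
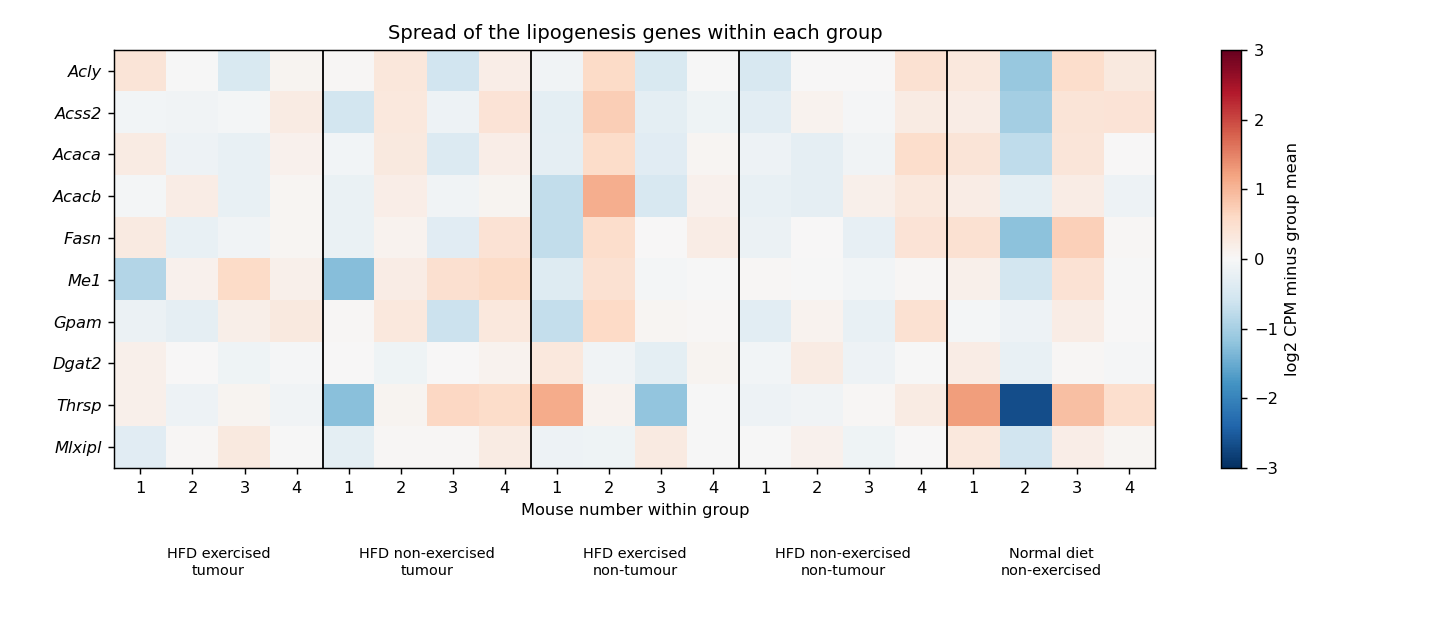
Log2 CPM of each gene minus its group mean in each library, blue below and red above, for mice 1 to 4 of the 5 groups. ND library 2 is blue in all 10 rows, most deeply for Thrsp, and exercised non-tumour library 2 is red for most rows.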

How the data were processed

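Frozen liver was sequenced with a stranded mRNA kit, per the labels' protocols. The authors deposited whole-number read counts per gene, 1 table a library, made per the file headers with featureCounts 2.0.5 over exons with strand setting 2 on GENCODE vM27. Trim Galore 0.6.10, STAR 2.7.11a and GRCm39 are from the submitters' processing notes. Groups and mouse numbers come from the sample titles; the 4 samples of a group are read as 4 mice.

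Genes kept by filterByExpr (minimum count 10, minimum total 15) were tested in R 4.3.3 with edgeR 4.0.16: TMM scaling, a robust quasi-likelihood fit of 5 group means with 15 residual degrees of freedom, and Benjamini-Hochberg adjustment over 14428 genes. The scripts were tested on simulated data. Libraries of a group differed beyond sampling noise in all 30 pairs (chi-square per gene at least 9.93). Of 55359 identifiers 52083 had a symbol. The 10 genes and the lists were chosen with earlier results of these data known.

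All 10 genes are named in every comparison. Of each list up to 4 genes past the test with the smallest p are named or, with none, the 2 of highest mean CPM, and for each gene the 2 of closest profile among genes of at least 1 mean CPM; a few genes the rule names are not reported here. Deviations of same-numbered tumour and non-tumour libraries correlated at 0.08 to 0.44 in exercised and -0.08 to 0.21 in non-exercised mice over genes; the pairing is taken from the titles. Alternatives were DESeq2 1.42.0, RLE and upper-quartile scaling, other filters, only the groups compared, a replicate block and each library left out.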

Additional observations from a re-analysis of the deposited data

Results flagged for a closer look

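In 50 tests, 1 per gene and group, of whether the highest or lowest of 4 libraries stood far from the others (Dixon's test), 3 were past it, against 2.5 that chance gives at 1 in 20. Acss2 had 228 CPM in exercised tumour library 4, against 178 to 183 CPM in the other 3. Acss2 had 158 CPM in exercised non-tumour library 2, against 77.3 to 86.6 CPM in the other 3. Acaca had 105 CPM in non-exercised HFD non-tumour library 4, against 61 to 67.6 CPM in the other 3.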

How the results depend on the processing

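The numbers of the 10 genes past the test did not move by more than 1.5 times with RLE or upper-quartile scaling, a filter of 1 CPM in 4 libraries, DESeq2 or only the groups compared. With no filter on low counts they were 3 for diet, 3 for tumours of non-exercised mice and 2 for tumours of exercised mice, where each was 5 with the filter; more genes were then tested. With the mouse number as a replicate block the number was 1 for exercised HFD against ND liver, where mice share only a number, with Fasn at 1.37 (adjusted p = 0.183) and Gpam at 0.89 (0.059). The block changed no call among the 10 genes in the other comparisons except Fasn and Acacb in tumours of exercised mice. With each library left out in turn the numbers ranged over 3 to 5 for diet, 2 to 5 for tumours of non-exercised mice, 2 to 6 for tumours of exercised mice and 1 to 3 for exercised HFD against ND liver, and were 0 throughout for both exercise comparisons and their difference. In tumours of exercised mice Fasn passed with DESeq2 (0.80, adjusted p = 0.0309) and with only the groups compared (0.81, 0.0416), Thrsp passed with only the groups compared (-1.29, 0.0467) and Me1 did not (-0.88, 0.0554). With only the groups compared Acaca did not pass for diet (0.80, 0.0542).

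No gene past the test changed sign under any alternative. Among those that had not passed, in non-tumour liver exercise turned negative with upper-quartile scaling for Acly (-0.01) and Mlxipl (-0.00). For the difference of exercise effects, Acly was -0.02 with RLE, -0.04 with no filter, -0.01 with the 1 CPM filter and -0.02 with DESeq2, Gpam was -0.00, -0.01 and -0.00 with RLE, no filter and DESeq2, and Dgat2 was -0.01, -0.02 and -0.01 with the same. With libraries left out, signs turned within -0.28 to 0.44 for Thrsp with diet. For exercise in non-tumour liver they turned within -0.19 to 0.21 for Acly and -0.07 to 0.08 for Mlxipl. In tumours they turned within -0.14 to 0.15 for Acly, -0.13 to 0.02 for Acacb, -0.13 to 0.38 for Me1, -0.13 to 0.17 for Acss2 and -0.05 to 0.17 for Mlxipl. For exercised HFD against ND liver they turned within -0.64 to 0.06 for Acacb and -0.08 to 0.13 for Dgat2. For the difference of exercise effects they turned within -0.19 to 0.21 for Acly, -0.01 to 0.47 for Acss2, -0.09 to 0.14 for Mlxipl, -0.19 to 0.24 for Gpam and -0.10 to 0.11 for Dgat2. The cause was not tested.

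Over all genes, diet gave 2025 genes higher and 1715 lower, and 2513 and 1140 with upper-quartile scaling. Exercise in non-tumour liver gave 2 genes, but 107 with DESeq2, 1 with no filter, 0 with only the groups compared or the replicate block, 72 without exercised library 3 and 0 or 1 without 6 of the other libraries. Exercise in tumours gave 3 genes, but 79 with DESeq2, 1 with RLE, upper-quartile scaling or the 1 CPM filter, 0 with only the groups compared or the block, 41 without exercised library 3, 31 without non-exercised library 3, and 0 or 1 without libraries 1, 2 and 4 of exercised and 1 and 2 of non-exercised mice. Exercised HFD against ND liver gave 2053 genes, but 1302 with no filter, 1408 with the block, 1301 without ND library 3 and 1157 without exercised library 2. Each of the 10 genes had at least 420 reads in every library; how far depth limits the calls over all genes was not tested.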
